A study of Homo sapiens with 16 samples.

Results

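The genes described here are the ligands and receptors of axon guidance from 3 signalling systems, chosen by symbol: protein-coding genes named SEMA, PLXNA to PLXND, EPHA, EPHB, EFNA, EFNB, ROBO or SLIT with a digit and at most 1 more character. The rule took 58 of 19974 protein-coding genes of the human hg38 assembly. Of these, 31 are ligands (20 semaphorins, 5 ephrins A, 3 ephrins B and 3 Slits) and 27 are receptors (9 plexins, 9 EphA, 5 EphB and 4 Robo receptors). Peaks of open chromatin were assigned to a gene when they lay inside its span or within 10 kb of it. After overlapping peaks of the 4 treatments were merged, 837 regions lay near these genes, of 112527 near any protein-coding gene.

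Axon guidance cues steer growing nerve fibres and migrating cells by attraction or repulsion. Semaphorins act through plexins, with neuropilins as co-receptors for most secreted class 3 members. Ephrins are bound to the membrane and signal on cell contact through Eph receptor tyrosine kinases, and Slits are secreted ligands of Robo receptors. In glioma several of these genes, EPHA2 and the semaphorins among them, are studied for their part in invasion and vessel growth.

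Open chromatin was mapped by NicE-seq in U87, 1 established human glioblastoma line, with an assay in which a nicking enzyme and a polymerase place biotin-carrying nucleotides in accessible DNA of fixed nuclei. The 4 groups were the combination (AsiDNA and belinostat, labelled Asi_Bel), belinostat alone (Control_Bel), AsiDNA alone (Asi_DMSO) and the DMSO vehicle (Control_DMSO), each with 4 libraries that shared 1 deposited peak list. Belinostat is an inhibitor of histone deacetylases, used at 1 µM for 24 h per the labels, and AsiDNA is a short double-stranded DNA that decoys DNA break repair. The labels give no AsiDNA dose or time, and their protocols speak of MTU87 and LTAU87 cells, names that do not occur in the sample fields, which leaves the AsiDNA exposure unsettled. The lists held 134865 peaks in the combination, 138937 with belinostat, 138273 with AsiDNA and 130318 with vehicle. Near the guidance genes there were 599 peaks in the combination, 631 with belinostat, 649 with AsiDNA and 595 with vehicle. Depth per library is unknown, and with 1 list per group no difference below has a replicate check or a test. Of 8 glial and glioma markers, 6 had a peak at the gene start in every list (NES, SOX2, VIM, CD44, OLIG2, S100B), and the astrocyte genes GFAP and ALDH1L1 had none. Of 4 neuronal markers, 3 had one (SYT1, TUBB3, SNAP25), as had 1 of 4 blood markers (CD3E), 1 of 3 epithelial markers (KRT8) and 0 of 2 endothelial markers. CDKN2A and MTAP, which U87 is known to have lost, had 0 regions.

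A region's presence pattern is the set of lists that hold a peak in it, and the 4 lists allow 15 patterns. A pattern is called "belinostat only" when both lists with belinostat (combination and belinostat alone) held a peak and the other lists did not. "Absent with belinostat" is its mirror image, with peaks in the AsiDNA and vehicle lists only. The AsiDNA patterns are defined the same way, by the combination and AsiDNA lists. The remaining even splits, peaks in both single-drug lists only or in the vehicle and combination lists only, follow neither drug and serve as a yardstick. Fold enrichment is the value the authors' peak caller gave each peak over local background. It is not scaled between lists, so it ranks peaks within a list and shows no change between lists. In bulk nuclei, fewer cells with an open site and a site that is less open in each cell cannot be told apart.

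Promoter sequences are shown first for 4 genes, picked as examples of related or neighbouring genes whose starts can be set side by side. They run 250 bases before to 50 bases after a start listed by RefSeq on GRCh38.p14, with CG dinucleotides in capitals. ROBO1 and ROBO2, genes for Robo receptors on chromosome 3, are shown at an inner and an outer start. The inner ROBO1 window (chr3:79019410-79019709, minus strand) lay wholly under a peak in every list, and the outer one (chr3:79767949-79768248, minus strand) under none. Neither ROBO2 window (outer chr3:76310630-76310929 and inner chr3:77039849-77040148, plus strand) met a peak in any list.
ROBO1 inner start: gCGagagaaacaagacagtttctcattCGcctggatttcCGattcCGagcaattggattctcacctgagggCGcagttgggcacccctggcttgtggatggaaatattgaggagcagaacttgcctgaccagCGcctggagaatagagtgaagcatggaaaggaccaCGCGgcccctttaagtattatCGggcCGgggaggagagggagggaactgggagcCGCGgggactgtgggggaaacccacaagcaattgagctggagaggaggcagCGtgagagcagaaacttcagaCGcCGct
ROBO1 outer start: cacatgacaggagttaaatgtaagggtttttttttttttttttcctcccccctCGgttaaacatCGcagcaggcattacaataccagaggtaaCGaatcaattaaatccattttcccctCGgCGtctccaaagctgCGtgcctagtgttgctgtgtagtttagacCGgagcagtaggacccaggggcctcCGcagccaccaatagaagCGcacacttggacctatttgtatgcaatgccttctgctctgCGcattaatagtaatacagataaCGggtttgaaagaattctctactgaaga
ROBO2 outer start: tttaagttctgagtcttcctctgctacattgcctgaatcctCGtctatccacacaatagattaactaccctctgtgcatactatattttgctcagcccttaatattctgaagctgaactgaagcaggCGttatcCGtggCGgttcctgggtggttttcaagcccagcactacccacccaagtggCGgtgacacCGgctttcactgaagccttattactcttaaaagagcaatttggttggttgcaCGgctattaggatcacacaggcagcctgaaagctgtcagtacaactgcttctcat
ROBO2 inner start: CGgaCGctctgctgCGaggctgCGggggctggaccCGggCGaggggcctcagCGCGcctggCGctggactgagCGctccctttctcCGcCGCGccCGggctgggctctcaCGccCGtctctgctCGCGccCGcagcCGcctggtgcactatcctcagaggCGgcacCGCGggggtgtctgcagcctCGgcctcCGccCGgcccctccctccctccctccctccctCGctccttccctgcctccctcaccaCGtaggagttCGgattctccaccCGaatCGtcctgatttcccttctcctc
The ROBO1 windows held 15 CG dinucleotides at the inner and 11 at the outer start. The inner ROBO2 window held 31 and was 72.3% G or C, more than the open ROBO1 start, and the outer one held 7.

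SEMA3B and SEMA3F, on the same chromosome, encode secreted class 3 semaphorins and had starts at which peaks followed belinostat. The first SEMA3B start (chr3:50259976-50260275, plus strand) lay under a peak in every list. Of the 5 listed SEMA3B starts, the one 8.94 kb further in (chr3:50268911-50269210, plus strand) was picked for its belinostat-only pattern. It lay wholly under a peak of the combination and of the belinostat list and under none of the others. The SEMA3B start 7.43 kb in had no peak in any list, and the starts 12.9 kb in had peaks in every list. The first SEMA3F start (chr3:50154808-50155107, plus strand) had 271 of its bases under a peak of the AsiDNA list and 121 under a peak of the vehicle list, and none in the lists with belinostat. The peaks that followed belinostat ranked low in their lists. At the inner SEMA3B start they stood at percentile 6.18 in the combination and 10.8 with belinostat, and at SEMA3F at 25.9 with AsiDNA and 13.3 with vehicle. All 6 regions of SEMA3B and 8 of the 9 of SEMA3F were shared with another gene.
SEMA3B first start: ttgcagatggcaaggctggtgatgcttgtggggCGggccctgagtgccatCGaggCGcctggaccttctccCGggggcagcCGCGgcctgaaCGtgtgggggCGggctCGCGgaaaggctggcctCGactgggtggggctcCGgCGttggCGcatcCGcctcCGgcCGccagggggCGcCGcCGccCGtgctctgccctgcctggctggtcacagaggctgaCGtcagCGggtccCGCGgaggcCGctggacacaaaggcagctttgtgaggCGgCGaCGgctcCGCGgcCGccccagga
SEMA3B inner start: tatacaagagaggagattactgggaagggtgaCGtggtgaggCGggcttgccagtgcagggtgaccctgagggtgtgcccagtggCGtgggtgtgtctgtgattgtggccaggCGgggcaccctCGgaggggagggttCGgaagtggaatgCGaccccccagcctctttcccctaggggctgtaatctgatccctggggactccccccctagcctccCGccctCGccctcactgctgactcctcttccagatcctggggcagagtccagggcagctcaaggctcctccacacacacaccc
SEMA3F first start: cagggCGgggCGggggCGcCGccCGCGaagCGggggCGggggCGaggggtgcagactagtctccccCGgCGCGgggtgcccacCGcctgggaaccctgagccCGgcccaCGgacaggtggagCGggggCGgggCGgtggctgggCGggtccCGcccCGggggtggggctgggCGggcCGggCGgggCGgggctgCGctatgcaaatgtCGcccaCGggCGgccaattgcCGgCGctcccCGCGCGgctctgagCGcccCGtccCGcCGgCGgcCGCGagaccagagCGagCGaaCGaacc
The SEMA3F window held 44 CG dinucleotides, the first SEMA3B window 32 and the inner SEMA3B window 9.

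Most guidance genes were open at the start in every treatment. A peak within 1000 bp of a start was present in every list at 38 of 58 genes (65.5%, Wilson 95% interval 52.7 to 76.4%, for counting error only), against a background of 63.5% of all protein-coding genes. In no list was there one at 11 genes (19.0%, interval 10.9 to 30.9%), where the background is 29.3%. The remaining 9 genes (15.5%, interval 8.38 to 26.9%) had a start peak in some lists, where the background is 7.25%. For 5 genes without a listed start (SEMA3A, SEMA6A, SEMA6B, EFNB3, EPHA10) a peak at either gene end was counted. Of the 19974 background genes, 15812 had a listed start, and the others were scored at either gene end too. The shares per gene thus rest on unlike scoring, and the part of this was not tested. Of listed starts, 23 of 84 in guidance genes and 6839 of 22132 over all genes had a peak in no list. In some lists it was 11 and 1583. Within 2000 bp, SLIT3, EFNA5 and SEMA4A had a peak in every list as well, and 49 of the 58 genes had the same pattern at 500, 1000 and 2000 bp.

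Among the ligands, 19 of 31 genes had a start peak in every list, 5 had none and 7 had one in some lists. SEMA7A, a membrane-anchored semaphorin and ligand of plexin C1, carried a start peak of fold enrichment 10.9 in the combination, 11.0 with belinostat, 9.08 with AsiDNA and 6.70 with vehicle. EFNA4, an ephrin anchored to the membrane by a lipid, had start peaks of 13.2 in the combination, 11.6 with belinostat, 12.2 with AsiDNA and 10.5 with vehicle. These peaks ranked between the 85.5th and 92.0th percentile of their lists. The transmembrane semaphorin SEMA6C had a start peak of 15.9 in the combination, 13.2 with belinostat, 7.92 with AsiDNA and 8.11 with vehicle. SLIT2, a secreted ligand of Robo receptors, had one of 4.95 in the combination, 6.12 with belinostat, 5.99 with AsiDNA and 5.12 with vehicle, while SLIT1 and SLIT3 had no start peak in any list. The ligand genes without a start peak were those 2 Slits, SEMA3A, SEMA4D and EFNA1, all of which had regions elsewhere in their span or flanks.

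Among the receptors, 19 of 27 genes had a start peak in every list, 6 had none (PLXNB2, EPHA1, EPHA6, EPHA8, EPHB6, ROBO2) and 2 had one in some lists. EPHB3, a receptor of ephrins B, had start peaks of 15.3 in the combination, 14.4 with belinostat, 9.17 with AsiDNA and 8.55 with vehicle. PLXNB3, a class B plexin, had peaks of 13.6 in the combination, 11.5 with belinostat, 11.2 with AsiDNA and 10.4 with vehicle. EPHA3, a receptor of ephrins A, had 12.2 in the combination, 11.3 with belinostat, 8.74 with AsiDNA and 8.51 with vehicle. EPHA2, the Eph receptor most studied in glioblastoma, had 7.77 in the combination, 7.44 with belinostat, 5.04 with AsiDNA and 4.59 with vehicle, and all 7 of its regions were in every list. ROBO4, the Robo of endothelial cells, had 10.4 in the combination, 9.90 with belinostat, 8.16 with AsiDNA and 8.88 with vehicle. A start peak shows open chromatin, not expression.

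**Figure D1:**
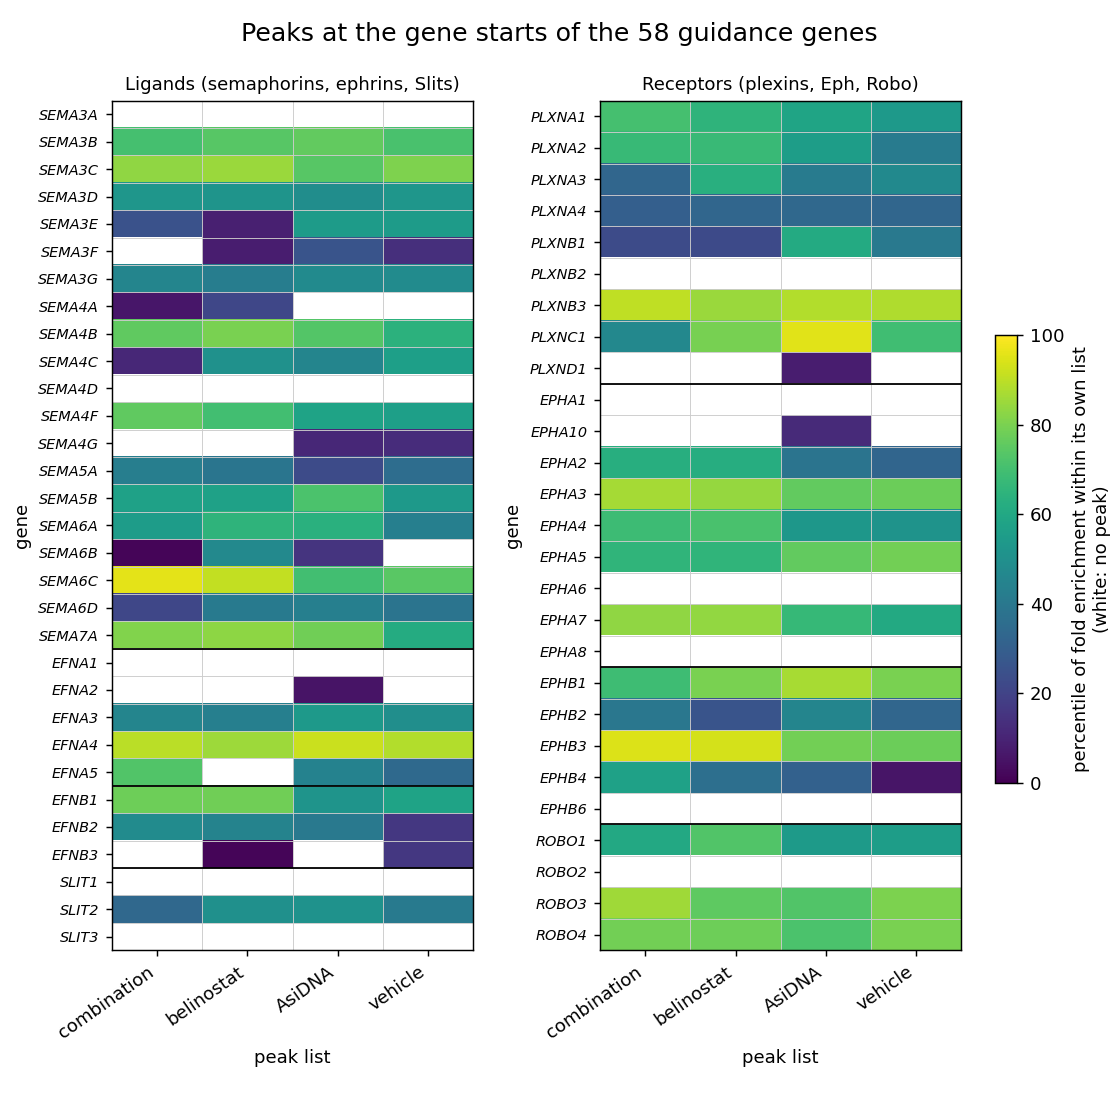
Each cell gives the percentile, within its own peak list, of the strongest peak within 1000 bp of a gene start, for 31 ligand genes (left) and 27 receptor genes (right). White cells have no peak, rows are genes with black lines between families, and percentiles rank peaks within 1 list and show no change between lists. Of the 58 genes, 38 have a colour in every list, 11 are white throughout and 9 are white in part.

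The 9 genes with a start peak in some lists mostly carried weak peaks. SEMA4A, a membrane semaphorin, had start peaks only in the combination (3.16) and belinostat (3.97) lists, at starts 6.21 and 7.18 kb into the gene. SEMA4G, another membrane semaphorin, had them only with AsiDNA (3.39) and vehicle (3.47). At SEMA3F, a ligand of the co-receptor neuropilin 2, the outer starts had peaks with AsiDNA (4.22) and vehicle (3.54) only, and the start 3.96 kb in had one in the belinostat list alone (3.23). The AsiDNA list alone held the start peaks of PLXND1 (3.20), the receptor of SEMA3E, of EFNA2 (3.02), a ligand of EphA receptors, and of EPHA10 (3.48), an Eph receptor without kinase activity. EFNB3, a transmembrane ephrin, had a vehicle peak at one gene end (3.68) and a belinostat peak at the other (2.60). SEMA6B, a transmembrane semaphorin, had peaks of the combination (2.68) and belinostat (3.71) lists at one end and of the belinostat (5.81) and AsiDNA (3.64) lists at the other. EFNA5 counted as missing from the belinostat list at 1000 bp only because that list's peak lay further out. At 500 bp only the vehicle list had a peak there, 168 bp from the start. The nearest peaks of the combination and AsiDNA lists lay 877 and 874 bp from it. The merged regions there were held by every list or by the vehicle list alone. The merged region at EPHA10 held a belinostat peak as well, and its start counted for both single drugs at 2000 bp. At 500 bp neither EPHA10 nor EFNA2 had a start peak.

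Several genes had more than 1 listed start, and the starts of a gene could differ. Over 84 listed starts of 53 genes, 50 had a peak in every list, 23 in none and 11 in some. Over all protein-coding genes these were 13710, 6839 and 1583 of 22132 listed starts. Of the 20 guidance genes with several starts, 11 had starts of different patterns, a count not made over all genes. ROBO1 was open at its inner start, 749 kb into the gene, with peaks of 7.43 in the combination, 8.92 with belinostat, 6.30 with AsiDNA and 6.18 with vehicle. PLXNC1, the plexin that binds SEMA7A, was open at the start 114 kb in, with 6.00 in the combination, 10.2 with belinostat, 13.8 with AsiDNA and 7.54 with vehicle, and not at its outer start. SEMA6D, a transmembrane semaphorin, was open at starts 533 and 534 kb in and not at its outer start, and SEMA3C at the one 3.34 kb in. ROBO3, a Robo receptor of commissural neurons, had inner starts with peaks in every list (12.0 in the combination, 9.34 with belinostat, 8.32 with AsiDNA and 8.97 with vehicle) and an outer start with peaks only with AsiDNA (3.80) and vehicle (4.33). The belinostat-only peaks at the inner SEMA3B start printed above were 3.17 in the combination and 3.39 with belinostat.

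Base composition of the 300-base windows differed between starts with a peak in every list and starts with none. Starts of guidance genes with a peak in every list held a median of 25 CG dinucleotides, and those with a peak in none held 14. Over all protein-coding genes the medians were 26 and 6. The GC box GGGCGG, searched on both strands, was found at 78% of guidance starts open in every list and 60.9% of those open in none, where over all genes it was found at 69.1% and 33.9%, and in 56.3% of all 22132 windows of this length. The AP-1 motif TGANTCA, searched on both strands, was found at 1 of 84 guidance starts, against 6.15% of all windows. The nicking enzyme cuts at CCA, CCG and CCT, and the windows held a median of 48 such sites on both strands at guidance starts with a peak in every list and 40 at those with none, so composition and the labelling chemistry moved together. The 11 guidance starts with a peak in some lists lay above both classes, with medians of 28 CG dinucleotides and 52 nicking sites. A GC box was found at 81.8% of them. Over all genes, starts with a peak in some lists had medians of 8 and 40, and a GC box at 41.5%. The part of composition and of the labelling chemistry in the peaks was not tested.

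The number of open regions ranged widely among genes of like length. SLIT3 (90 regions), PLXNA4 (86), ROBO1 (83), SEMA5A (62) and EFNA5 (52) had the most. Of 314 protein-coding genes of at least 500 kb, PLXNA4, a plexin of the class A that serves secreted and membrane semaphorins, had the most regions per length, 15.8 per 100 kb of span and flanks, where the median was 4.03 and the 90th percentile 9.93. In single lists its rank among these genes was 4 in the combination, 3 with belinostat, 2 with AsiDNA and 3 with vehicle. SLIT3 ranked 4 (13.6 per 100 kb) and SEMA5A, a semaphorin with thrombospondin repeats, ranked 13 (11.7 per 100 kb). At the other end were SEMA6D (1.64 per 100 kb) and EPHA6, an Eph receptor with 4 regions over 947 kb (0.414 per 100 kb). EPHA8 had 1 region, held by the belinostat list alone, and EPHA7 had 2. DNA copy number of the line was not used here and its part in these densities was not tested.

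ROBO2 had no region at all in 1743 kb, while ROBO1, near it on chromosome 3, had 83 in 1171 kb. The stretch without a region around ROBO2 ran from chr3:75753873 to chr3:78205004, 2.45 Mb, so it passed the gene by 153 kb on one side and 555 kb on the other. Of the 314 genes of at least 500 kb, 13 (4.14%) had no region, and of the 69 of at least 1000 kb it was 3 (AUTS2, CSMD1 and ROBO2). Closed chromatin and loss of the DNA cannot be told apart in a list of peaks. Within ROBO1 the regions lay at 10.2 per 100 kb downstream of the inner start and at 5.01 per 100 kb between the outer and the inner start.

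**Figure D2:**
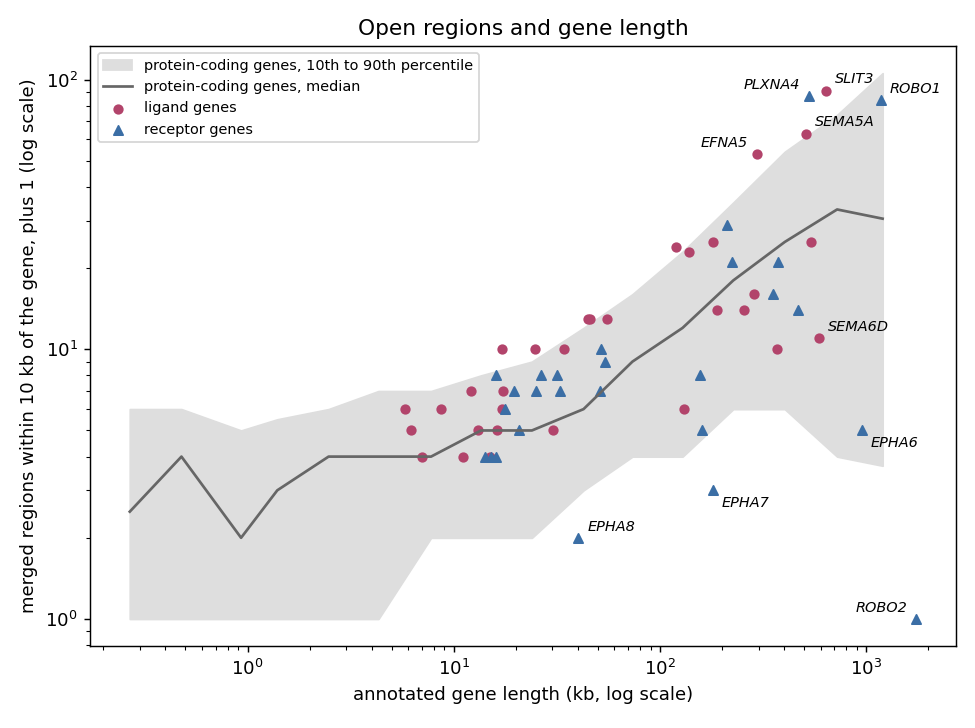
Merged regions within 10 kb of a gene, plus 1 (vertical axis, log scale), against annotated gene length in kb (horizontal axis, log scale) for the 58 guidance genes, ligands as circles and receptors as triangles. The grey line and band give the median and the 10th to 90th percentile of all protein-coding genes in length bins of at least 20 genes; SLIT3 with 90 regions and PLXNA4 with 86 lie above the band, and ROBO2 with 0 lies at the bottom.

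The start regions of these genes were not among their strongest. Every list placed 31 regions at or above its own 90th percentile of fold enrichment. These were 0 of the 47 every-list regions at a listed start of a guidance gene and 31 of the 381 elsewhere (8.14%). Counting starts of any neighbouring gene as well, they were 2 of 60 at a start (3.33%) and 29 of 368 elsewhere (7.88%). Near all protein-coding genes they were 8.55% of 10729 every-list regions at a start and 6.65% of 50611 elsewhere. Median percentiles of the 47 and the 381 were 57.2 and 60.7 in the combination, 63.0 and 61.4 with belinostat, 54.4 and 61.6 with AsiDNA and 52.5 and 61.2 with vehicle. With starts of any neighbouring gene, the 60 start regions had 64.2 in the combination, 65.1 with belinostat, 58.2 with AsiDNA and 53.9 with vehicle. Near all protein-coding genes start regions had higher medians, 76.4 in the combination, 77.0 with belinostat, 70.1 with AsiDNA and 68.8 with vehicle. Regions elsewhere had 63.0, 64.0, 63.2 and 61.4 in the same order. None of these differences was tested. Start regions were wider, with a median of 925 bp against 556 bp. Ranked by the lowest percentile over the 4 lists, the strongest ligand region was inside SEMA3E, a secreted repellent that binds plexin D1 directly (chr7:83468180-83468804). Its fold enrichment was 19.2 in the combination, 19.8 with belinostat, 20.9 with AsiDNA and 16.6 with vehicle. The strongest region of the ephrins A was inside EFNA5 (16.3 in the combination, 16.8 with belinostat, 13.8 with AsiDNA and 12.4 with vehicle). That of the Slits was inside SLIT3 (16.2 in the combination, 16.3 with belinostat, 14.6 with AsiDNA and 13.0 with vehicle). EFNB2, an ephrin of vessel and nerve patterning, held that of the ephrins B. It had 14.8 in the combination, 15.2 with belinostat, 12.3 with AsiDNA and 11.3 with vehicle. Regions inside SEMA3A and SEMA5A, with lowest percentiles of 97.4 and 96.6, ranked above those of EFNA5, SLIT3 and EFNB2. Among receptors, the strongest Robo region was inside ROBO1 (chr3:79167639-79168456, 21.6 in the combination, 18.1 with belinostat, 20.6 with AsiDNA and 19.5 with vehicle). The strongest EphA region was inside EPHA3 (19.7 in the combination, 17.5 with belinostat, 18.0 with AsiDNA and 17.5 with vehicle). The strongest plexin region was inside PLXNA4 (16.6 in the combination, 14.6 with belinostat, 17.8 with AsiDNA and 16.3 with vehicle). The strongest EphB region lay upstream of EPHB4, inside SLC12A9. It had 17.3 in the combination, 15.5 with belinostat, 14.4 with AsiDNA and 12.5 with vehicle. A region upstream of EPHA2, with a lowest percentile of 97.4, ranked above those of PLXNA4 and EPHB4, as did a further ROBO1 region at 97.1.

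Of the 837 regions, about as many followed belinostat as near other genes. A peak in every list was found at 428 regions (51.1%, interval 47.8 to 54.5%), where the background is 54.5%. Belinostat-only regions numbered 57 (6.81%, interval 5.29 to 8.72%), where the background is 6.27%. Absent with belinostat were 52 regions (6.21%, interval 4.77 to 8.06%), where it is 4.86%. They lay near 29 and 24 of the 58 guidance genes, against 5743 and 4234 of all 19974 genes. Guidance genes also had more regions per gene, with a median of 7 against 5, and the part of this was not tested. With every list cut to the length of the shortest, belinostat-only regions numbered 48 of 791 (6.07%, where all genes have 6.11%). Those absent with belinostat numbered 50 (6.32%, where all genes have 5.19%). AsiDNA-only regions numbered 14 (1.67%, interval 1.00 to 2.79%), where the background is 1.09%, and as many were absent with AsiDNA, where it is 0.789%. Peaks in the single-drug lists only were found at 17 regions (2.03%), where the background is 1.29%, and in the vehicle and combination lists only at 2 (0.239%), where it is 0.592%. These last counts were 8 and 5 of 711 with peaks of −log10 q of 5 or more, and 11 and 6 of 791 in lists of equal length.

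Read as splits, belinostat divided 109 regions (13.0%, interval 10.9 to 15.5%), AsiDNA 28 (3.35%, interval 2.32 to 4.79%) and neither drug 19 (2.27%, interval 1.46 to 3.52%). Near all protein-coding genes the shares were 11.1%, 1.88% and 1.88%. The belinostat split was thus 5.74 times as frequent as the split of neither drug near guidance genes, and 5.92 times near all genes. The AsiDNA split was 1.47 times as frequent as that of neither drug near guidance genes and 0.998 times near all genes. When present required a −log10 q of 5 or more and absent required no peak, AsiDNA and neither drug split 10 regions each, 1.70% of those kept, where all genes had 1.08% and 0.985%. These shares were not tested against the background.

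**Figure D3:**
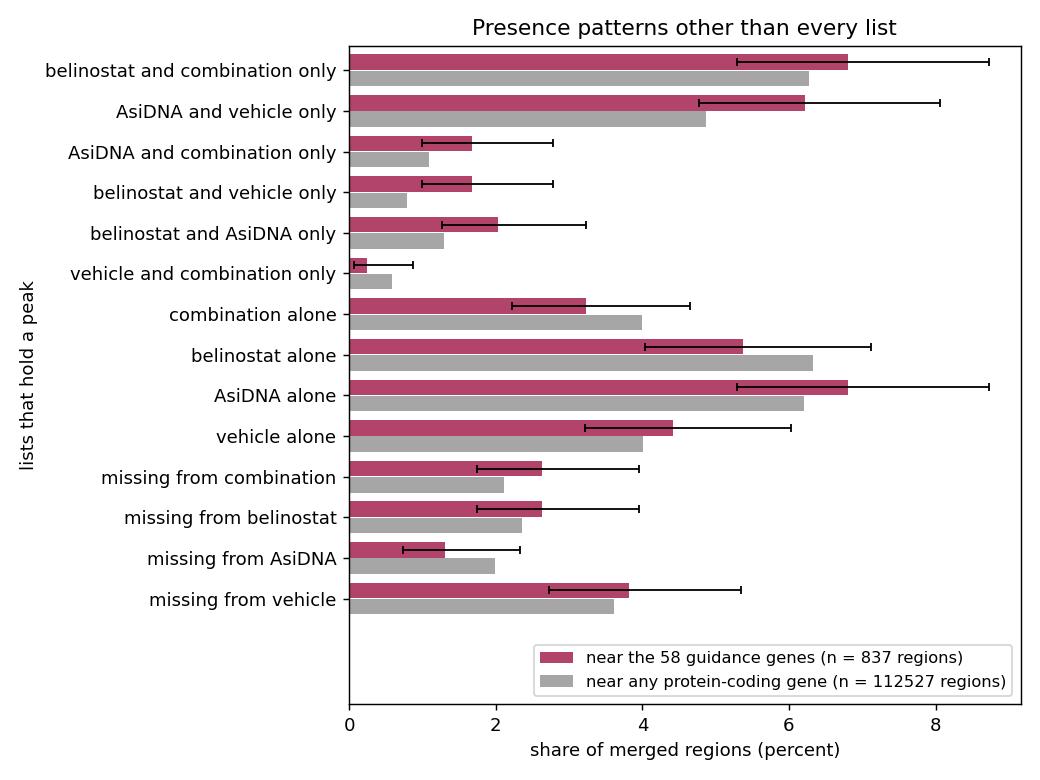
Share of merged regions, in percent, in each of the 14 presence patterns other than every list, for 837 regions near guidance genes (coloured bars, with Wilson 95% intervals for counting error only) and 112527 near any protein-coding gene (grey bars). The belinostat patterns hold 6.81% and 6.21% of the guidance regions, where all genes have 6.27% and 4.86%.

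By family, ligands had 32 belinostat-only regions (6.74%) and 32 absent with belinostat (6.74%) among 475, and receptors had 25 (6.91%) and 20 (5.52%) among 362, where all genes have 6.27% and 4.86%. The semaphorins had 21 (7.64%) and 25 (9.09%) of 275, and among the secreted class 3 members 8 (8.25%) and 12 (12.4%) of 97. The plexins had 14 (9.40%) and 7 (4.70%) of 149, the EphA receptors 6 (8.96%) and 3 (4.48%) of 67, and the EphB receptors 4 (6.90%) and 3 (5.17%) of 58. The Slits had 7 (6.25%) and 4 (3.57%) of 112, the ephrins A 3 (4.41%) and 3 (4.41%) of 68, and the Robo receptors 1 (1.14%) and 7 (7.95%) of 88. These differences between families were not tested.

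Per gene, belinostat-only regions outnumbered those absent with belinostat in 21 of 58 genes (36.2%, against 22.2% of all genes), and the reverse held in 13 (22.4%, against 14.2%). Another 4 genes had equal numbers, and 20 genes (34.5%, against 59.2%) had neither kind. Guidance genes were also longer, with a median of 48.6 kb against 24.2 kb, and had more regions, with a median of 7 against 5 per gene, and the part of this in the shares per gene was not tested. The 5 genes with most regions (PLXNA4, SEMA5A, SLIT3, ROBO1 and EFNA5) had 48 of the 109, 44.0%, in step with their 44.4% of all regions. PLXNA4 had 9 belinostat-only regions and 6 absent with belinostat, SEMA5A had 7 and 4, and SLIT3 had 6 and 3. ROBO1 had 1 and 6, SEMA3D, a secreted class 3 semaphorin, had 1 and 5, and SEMA4D, the ligand of plexin B1, had 0 and 3.

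**Figure D4:**
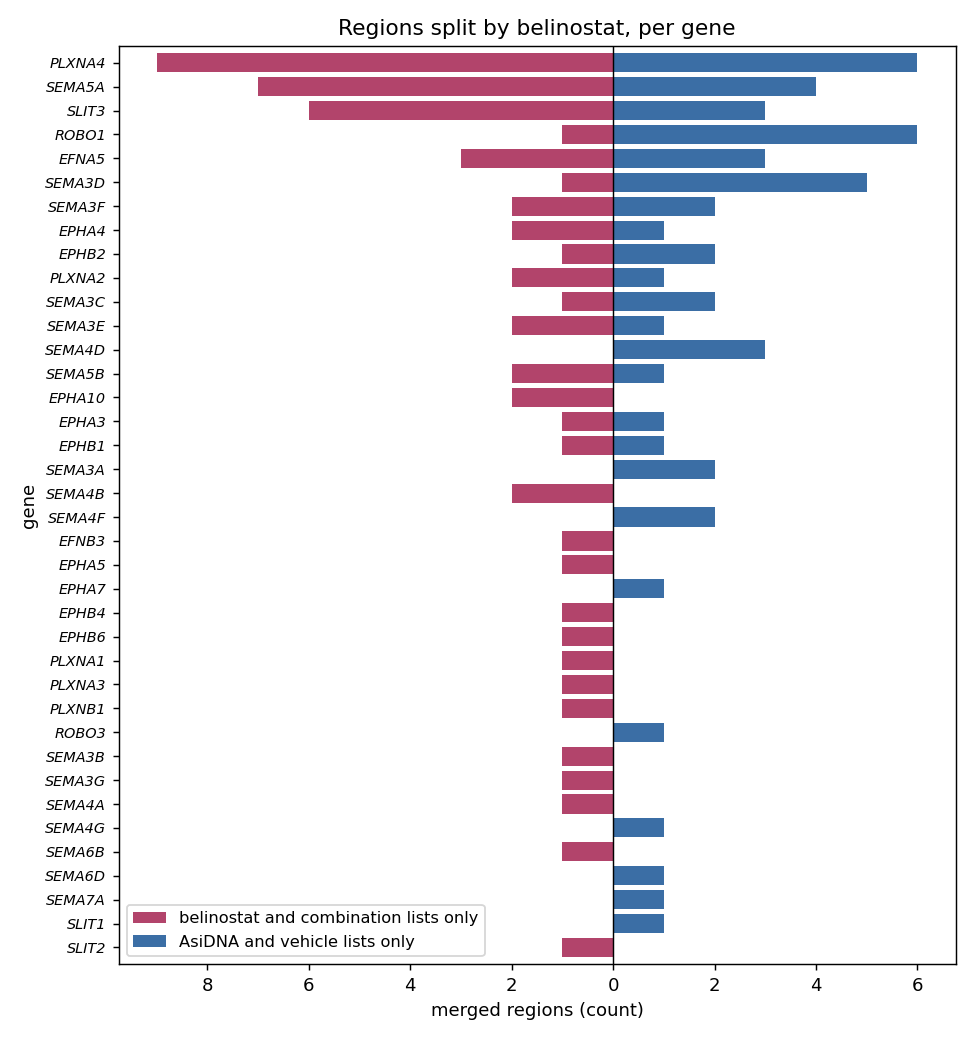
Merged regions per gene (count) found in the belinostat and combination lists only, to the left, and in the AsiDNA and vehicle lists only, to the right, for the 38 genes that have any. PLXNA4 has 9 and 6, SEMA5A 7 and 4, ROBO1 1 and 6, and SEMA3D 1 and 5.

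The leading belinostat-only regions lay inside gene bodies. EPHA4, an Eph receptor that binds ephrins of both classes, held the first, at chr2:221461937-221462341 and 110 kb from its nearest start, with a fold enrichment of 9.23 in the combination and 9.97 with belinostat. A further EPHA4 region, 77.3 kb from the start, had 8.31 in the combination and 6.49 with belinostat. PLXNA4 held one at chr7:132609202-132609715 (7.24 in the combination and 8.51 with belinostat). The next were inside EPHA5, the receptor for EFNA5 (7.16 in the combination and 8.34 with belinostat), SLIT3 (6.97 in the combination and 6.44 with belinostat) and EPHA10 (6.67 in the combination and 7.05 with belinostat). The first ranked at the 72.4th percentile or higher in its lists, above most peaks of both, and the sixth at the 53.1st.

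The leading regions absent with belinostat were inside SEMA3D. One at chr7:85160233-85160696, 26.4 kb from the start, had a fold enrichment of 8.41 with AsiDNA and 9.46 with vehicle, and one at chr7:85065337-85065676 had 7.71 with AsiDNA and 7.80 with vehicle. A region downstream of SLIT1 (7.71 with AsiDNA and 8.28 with vehicle) lay inside the neighbouring gene LCOR. EFNA5 held one with 7.01 with AsiDNA and 6.38 with vehicle, ROBO1 one with 9.58 with AsiDNA and 6.38 with vehicle, and EPHA4, which also led the opposite pattern, one with 7.24 with AsiDNA and 6.38 with vehicle. Regions of both belinostat patterns had median widths of 347 bp and 346.5 bp, against 576 bp for those in every list. Regions of the AsiDNA patterns had 317 bp and 319 bp. Those in the single-drug lists only had 290 bp, and those in the vehicle and combination lists only 255 bp. A merged region spans all its peaks, so one held by fewer lists can be narrower, and the part of this was not tested. At a listed start lay 2 of 57 belinostat-only regions (3.51%) and 6 of 52 absent with belinostat (11.5%). Of those in every list it was 47 of 428 (11.0%). Regions of genes without a listed start could not count here, and 53, 50 and 408 of these regions belonged to genes with one. The shares at a start were not counted over all genes.

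**Figure D5:**
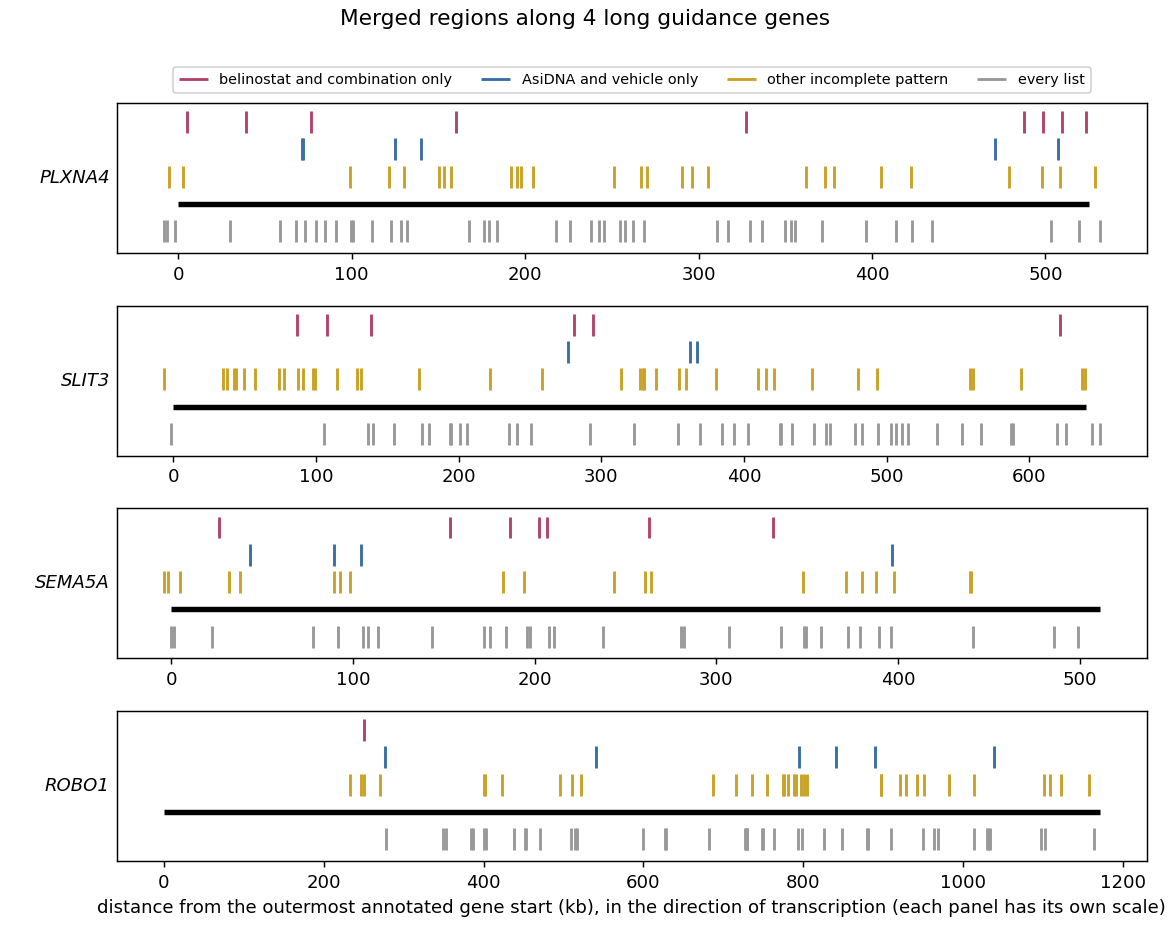
Merged regions along PLXNA4, SLIT3, SEMA5A and ROBO1, by distance in kb from the upstream edge of the annotated gene span, in the direction of transcription. The axis label calls this edge the outermost gene start. The listed start of PLXNA4 lies 72.2 kb inside it. Ticks above the gene (black bar) are regions in the belinostat and combination lists only, in the AsiDNA and vehicle lists only and in other incomplete patterns, and grey ticks below are in every list; PLXNA4 has 9, 6, 27 and 44 of these and ROBO1 has 1, 6, 34 and 42.

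Regions that followed AsiDNA were fewer, and the leading one ranked at the 41.2th percentile or higher in its lists, against the 72.4th for belinostat. ROBO1 held the leading AsiDNA-only region (chr3:78785108-78785504, 5.54 in the combination and 6.07 with AsiDNA) and another with 4.05 in the combination and 6.07 with AsiDNA. The others named were at SEMA6C, inside LYSMD1 (4.62 in the combination and 5.84 with AsiDNA), SEMA6D (4.39 in the combination and 4.44 with AsiDNA), EPHA5 (3.92 in the combination and 4.67 with AsiDNA) and SLIT3 (5.31 in the combination and 3.50 with AsiDNA). Absent with AsiDNA were regions inside EPHA5 (chr4:65508258-65508470, 5.76 with belinostat and 5.12 with vehicle), SLIT2 (4.87 with belinostat and 5.44 with vehicle), SEMA3A (5.21 with belinostat and 3.93 with vehicle), PLXNB2 (4.17 with belinostat and 3.55 with vehicle) and ROBO1 (4.64 with belinostat and 3.55 with vehicle; 3.48 with belinostat and 6.15 with vehicle). SLIT3 had 4 AsiDNA-only regions and 2 absent with AsiDNA, and ROBO1 had 2 of each. With peaks of −log10 q of 5 or more, 7 regions were absent with AsiDNA, and with a margin between present and absent 4 were. Of the regions named here, both of ROBO1 and that of PLXNB2 among those absent with AsiDNA, and that of SLIT3 among the AsiDNA-only ones, lost their pattern under both settings.

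Regions with a peak under each drug given singly, and not in the combination or with vehicle, were led by SLIT3 (chr5:169265908-169266398, 5.15 with belinostat and 4.75 with AsiDNA). SEMA3D (5.79 with belinostat and 4.67 with AsiDNA), ROBO1 (4.64 with belinostat and 5.61 with AsiDNA), EPHA5 (4.40 with belinostat and 4.67 with AsiDNA), SEMA4B near CIB1 and GDPGP1 (4.09 with belinostat and 4.54 with AsiDNA) and SLIT3 again (3.82 with belinostat and 5.14 with AsiDNA) followed. The opposite pattern had 1 region inside SLIT1 (3.44 in the combination and 3.93 with vehicle) and 1 upstream of PLXNA4 (3.19 in the combination and 4.23 with vehicle).

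Peaks held by 1 list alone numbered 27 in the combination (3.23%, where all genes have 3.99%), 45 with belinostat (5.38%, where they have 6.33%), 57 with AsiDNA (6.81%, where they have 6.20%) and 37 with vehicle (4.42%, where they have 4.01%). The strongest were inside ROBO1 in the combination (7.39), EPHA3 with belinostat (6.26), EPHA3 with AsiDNA (8.29) and PLXNA2, a class A plexin, with vehicle (4.47). The next in the combination were near SEMA6C, SEMA5A, EFNA5 and SEMA5B, with belinostat in SLIT2, SEMA3E, SEMA3A and ROBO1, with AsiDNA in SEMA3E, PLXNC1, ROBO1 and EPHB1, and with vehicle in ROBO1, SLIT1, SEMA3C, SLIT3 and SEMA5A. ROBO1 had 9 regions held by the AsiDNA list alone. Regions that only 1 list missed numbered 22 for the combination (2.63%, where all genes have 2.12%), 22 for belinostat (2.63%, where they have 2.35%), 11 for AsiDNA (1.31%, where they have 1.99%) and 32 for vehicle (3.82%, where they have 3.61%). Their leading members were inside SEMA4D for the combination (6.26 with belinostat, 7.24 with AsiDNA and 6.44 with vehicle) and SEMA5A for belinostat (7.04 in the combination, 7.80 with AsiDNA and 5.62 with vehicle). For AsiDNA it lay beside SEMA6B (4.91 in the combination, 5.50 with belinostat and 4.50 with vehicle), a gene that had 9 regions and 0 in every list. For vehicle they were led by ROBO1, followed by SEMA5A and SEMA3A.

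Set against vehicle in pairs of lists, belinostat had 151 guidance regions that vehicle lacked, of 626 (24.1%, where the background is 22.8%), and lacked 113 of vehicle's 588 (19.2%, where it is 16.6%). AsiDNA had 120 of 644 that vehicle lacked (18.6%, where the background is 16%) and lacked 64 of 588 (10.9%, where it is 10.4%). The combination had 130 of 593 that vehicle lacked (21.9%, where the background is 20.1%) and lacked 125 of 588 (21.3%, interval 18.1 to 24.7%, where it is 16.5%). Set against AsiDNA, the combination had 97 of 593 more (16.4%, where the background is 17.3%) and lacked 148 of 644 (23.0%, interval 19.9 to 26.4%, where it is 19%). Set against belinostat, it had 65 of 593 more (11.0%, where the background is 10.8%) and lacked 98 of 626 (15.7%, where it is 13.7%). The pairs share lists and are not independent of one another. With peaks of −log10 q of 5 or more alone, the combination lacked 83 of 510 vehicle regions (16.3%, where all genes have 13.7%) and 98 of 550 AsiDNA regions (17.8%, where all genes have 16.7%). The counts against vehicle moved with list length. With every list cut to the length of the shortest, belinostat had 119 regions that vehicle lacked (20.6%, where all genes have 20.1%) and lacked 128 (21.8%, where they have 18.6%). AsiDNA had 90 (15.1%, where all genes have 13.7%) and lacked 82 (13.9%, where they have 12.7%). The combination had 113 (19.8%, where all genes have 18.8%) and lacked 130 (22.1%, where they have 17.7%), so that the excess of gained regions turned for belinostat and the combination.

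Guidance genes outside the naming rule, such as netrins, their receptors DCC and UNC5, neuropilins and cytoplasmic mediators, were counted as a list of 47. A start peak was in every list at 30 (63.8%, where all genes have 63.5%), in no list at 13 (27.7%, where they have 29.3%) and in some lists at 4 (8.51%, where they have 7.25%), namely DPYSL4, FLRT1, RGMA and L1CAM. Near them lay 752 regions, 380 in every list (50.5%, where all genes have 54.5%), 65 belinostat only (8.64%, where they have 6.27%) and 34 absent with belinostat (4.52%, where they have 4.86%). AsiDNA-only regions numbered 7 (0.931%, where all genes have 1.09%) and those absent with AsiDNA 6 (0.798%, where they have 0.789%). In the single-drug lists only there were 9 (1.20%, where all genes have 1.29%), and in the vehicle and combination lists only 6 (0.798%, where they have 0.592%).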

How the data were processed

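NicE-seq libraries from 16 U87 samples, 4 per group, were grouped by their labelled treatment. The build was hg38, and MACS2, Picard, SAMtools, Bowtie2, deepTools and Trim Galore (0.5.0) are named, per the submitters' processing notes. How these were run, and how 4 libraries became 1 list, is not given in the sources used here. Each deposited peak has a score, a fold enrichment (ratio over local background), a −log10 q-value and a summit position, among other values of the authors' caller.

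Peaks on chromosomes 1 to 22 and X were merged across lists where they overlapped by 1 bp or more, and regions were assigned to genes of RefSeq's GRCh38.p14 table extended by 10 kb. Gene starts came from RefSeq's promoter table. Code (Python 3.11.15, numpy 2.4.6, pandas 2.3.3, scipy 1.17.1, matplotlib 3.10.9) was tested on simulated patterns of 183659 regions and recovered 100% of them. Each simulated peak lay inside 1 real region and covered its midpoint, so peaks of a region had to overlap. This checks the labelling of patterns and not the merging of offset, split or bridging peaks.

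Shares carry Wilson 95% intervals for counting error only. No test was run, because each group has 1 list. Regions named are, per pattern, the up to 6 whose lowest within-list percentile of fold enrichment is highest, plus the strongest every-list region of each family, starts open in some lists, genes without regions and those with most. The named single-list and 1-list-missing regions are summarised. Start peaks in every list that are given with values are examples outside this rule, and do not stand for the other starts. Members and lists were chosen with earlier results of these data known. Alternatives covered the threshold, list length, overlap and windows.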

Additional observations from a re-analysis of the deposited data

Results flagged for a closer look

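Near the guidance genes, 17 regions had a peak with belinostat and with AsiDNA given singly and none in the combination or with vehicle, so the belinostat contrast ran one way without AsiDNA and the other way with it. In the reverse pattern, peaks in the combination and vehicle lists only, there were 2 regions. These were 2.03% and 0.239% of the guidance regions, where all genes have 1.29% and 0.592%. With peaks of −log10 q of 5 or more they numbered 8 and 5 of 711 (1.13% and 0.703%, where all genes have 1.04% and 0.465%), and in lists of equal length 11 and 6 of 791 (1.39% and 0.759%, where all genes have 0.973% and 0.818%). With 1 list per group the difference between the belinostat contrasts was not tested.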

How the results depend on the processing

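Of 67 values recomputed under the alternatives, 55 stayed within 1.5 times the main count (shares, within its 95% interval) and 12 moved, and the cause of the moves was not tested beyond the smaller or larger number of regions each setting keeps. The share of regions in every list was 55.4% with peaks of −log10 q of 5 or more, 67.0% with a margin between present and absent, and 47.0% with peaks grouped by summits within 250 bp. With the margin, which kept 588 regions, belinostat-only regions numbered 36 (6.12%, all genes 5.89%), those absent with belinostat 28 (4.76%, all genes 4.50%), AsiDNA-only 6 (1.02%, all genes 0.693%), absent with AsiDNA 4 (0.680%, all genes 0.383%) and those of neither drug's split 10 (1.70%, all genes 0.985%). Extending genes by 50 kb gave 93 belinostat-only regions (7.54%, all genes 6.37%). With peaks of −log10 q of 5 or more, 7 regions were absent with AsiDNA (0.985%, all genes 0.587%), and the combination lacked 83 vehicle regions and 98 AsiDNA regions. All 80 named regions kept their pattern in each of 5 settings, except 5 at SLIT3, ROBO1 (2), PLXNB2 and EPHA6, which lost it at the stricter threshold and with the margin. The named regions were picked for high percentiles, so most of their peaks passed the stricter threshold beforehand. Their stability under these settings therefore says nothing of the regions not named. At 500 bp 38 genes had a start peak in every list and at 2000 bp 41. No paired analysis was possible because each group has 1 peak list. The lists carry no depth, so a missing peak may lie just under the caller's threshold.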
